A study of Mus musculus with 22 samples.

Results

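Glycolysis and hypoxia genes were followed across mouse tumour cell lines sorted by the epithelial surface protein EPCAM. The set held 34 genes chosen by name, 21 of glycolysis and 13 that hypoxia is known to induce or that sense oxygen, out of 49671 genes in the table. All 34 were found and all 34 passed the filter on low values. The 22 libraries came from primary lines made from a mouse tumour and from lines derived from them with CRISPR/Cas9, which cuts a chosen gene. Every line carried Lgr5CreER (Cre recombinase driven from the stem cell gene Lgr5 and active after tamoxifen), p53fl/fl (a floxed tumour suppressor) and the Rosa26-YFP+/+ reporter, which marks recombined cells. The 4 knockout lines were Pitx1KO, Klf5KO, Nfatc1KO and Creb3l1KO, each named for the transcription factor targeted, and the fifth line was Control. At day 8, EPCAM+ and EPCAM- cells of each of the 5 lines were sorted separately, and EPCAM+ Control cells were also taken at day 0, which gave 11 groups of 2 libraries. What began at day 0 is not stated in the labels. They leave unsaid whether a knockout line is 1 clone and whether paired libraries of a group grew as separate cultures, so p-values measure the spread between these libraries, which may be technical. The labels' batch tag separates replicate 1 from replicate 2 in every group.

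Glycolysis breaks glucose down to pyruvate in the cytosol. Glucose enters through transporters such as Slc2a1, hexokinases trap it, and a chain of enzymes from Gpi1 to Pkm converts it, after which Ldha can turn pyruvate into lactate and Slc16a3 exports it. Cells short of oxygen stabilise the transcription factor HIF, made of an alpha subunit such as Hif1a and the partner Arnt. In oxygen the prolyl hydroxylases Egln1 and Egln3 mark Hif1a for destruction through Vhl, and Egln3 is itself a HIF target. HIF binds a short core, ACGTG or GCGTG, and raises many genes of glucose use, blood vessel growth, pH control, mitophagy and collagen maturation, so the glycolysis and hypoxia genes overlap in their regulation. Tumour cells often run glycolysis also in oxygen. The hypoxia members here fall into oxygen sensing (Hif1a, Egln1, Egln3), mitophagy receptors (Bnip3, Bnip3l), pH control (Car9), secreted factors (Vegfa, Adm), collagen prolyl hydroxylases (P4ha1, P4ha2) and 3 others (Ankrd37, Ndrg1, Mxi1).

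Values are the deposited normalised read counts, called values below. Their sum per library was 20007331 to 20014236, and the step between low values gave 6054918 to 9882692 reads per library, so 1 read stood for 2.02 to 3.30 units. Over the 5 lines at day 8 the sort showed in Epcam (5771.5 in EPCAM+ and 402.1 in EPCAM- cells) and in the adhesion gene Cdh1 (3278.2 and 265.1), both lower in EPCAM- cells in 10 of 10 pairs, while the mesenchymal filament gene Vim stood at 9954.3 and 46225.6. Pitx1 was at 1205 to 1627 in Pitx1KO against 4358 to 6438 in Control at day 8, and Nfatc1 at 182 to 249 in Nfatc1KO against 488 to 981. Klf5 (1961 to 2247 against 1733 to 2941) and Creb3l1 (0 to 6 against 0 to 137) overlapped between the knockout and Control, and since Cas9 edits need not lower an mRNA, these levels do not check those 2 labels. The keratins Krt8 and Krt18 were at 7622 to 19245 and 5389 to 15536, Cd3e, Hba-a1 and Hbb-bs were listed at 0 in all libraries, and Ptprc did not exceed 9, while other markers of those lists were present: Csf1r at 91 to 277, Cd68 at 26 to 97, the endothelial Pecam1 at 53 to 157 and the erythroid Alas2 at 5 to 81. The summed immune markers (3 of 6 reached 10 in a library) stood at 144 to 360 in EPCAM+ and 138 to 272 in EPCAM- libraries, and the endothelial ones (3 of 4) at 69 to 203 and 65 to 431. The summed fibroblast markers (5 of 5 in the table, of which 3 reached 10 in a library) stood at 90 to 771 in EPCAM+ and 620 to 3828 in EPCAM- libraries, led by Col1a1, with Thy1 at no more than 3 and Lum at no more than 6. Their part in the differences below was not tested.

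Levels of the members spanned a wide range in both groups, from Pkm, Ldha and Gapdh at the top to Aldoc and Eno2 at the bottom. Together the 21 glycolysis members made up 0.475% to 0.687% of a library's values (median 0.552%) and the 13 hypoxia members 0.0540% to 0.111% (median 0.0804%). As the median value over 22 libraries per kilobase of exon, Pkm, which makes pyruvate, led with 5124, followed by Ldha (4712), Gapdh (4227) and Aldoa (3154). Vegfa (838), the main angiogenic factor, and Hif1a (816) were the highest hypoxia members on this scale, close to Gpi1 (840). For several steps 1 isoform dominated: Eno1 stood at 2205 per kilobase and the neuronal enolase Eno2 at 2.98, and Aldoa at 3154 against 3.37 for the brain aldolase Aldoc. The sparsest members were Eno2, Aldoc, Slc16a3 (4.80), Car9 (5.86) and Adm (6.49), with between 0 and 25 reads in any library, so a few reads move their values. Car9, the tumour carbonic anhydrase often used as a hypoxia marker, never rose above 31, which was 12 reads.

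Leaving aside the 5 sparsest members, the widest spreads over libraries were those of hypoxia members. Egln3 ranged from 3 to 442, Vegfa from 699 to 8835 (12.6-fold), Mxi1 from 132 to 714 (5.41-fold) and Ndrg1 from 935 to 4085 (4.37-fold). The sparse members spread widely in both groups, among them Slc16a3 (15.7-fold), Car9 (10.3-fold), Aldoc (9-fold), Eno2 (0 to 33) and Adm (0 to 59). Several abundant enzymes had narrow ranges: Gpi1 ranged 1.42-fold, Aldoa 1.44-fold, Pkm 1.52-fold and Gapdh 1.52-fold. Ldha ranged 2.40-fold. Several members share sequence with other genes, and the counting's use of strand is not given in the sources used here. Eno1 has a near-identical copy, Eno1b (median 2352.5), Pkm and Pfkm overlap a gene on their own strand (Gm49759 and Gm26513, medians 5383 and 40.0), and Ndrg1, Mxi1, Hif1a, Bnip3, Gpi1 and Pfkp overlap genes of the opposite strand, so reads of these could be split. Egln3, P4ha1, Ldha, Pgam1, Eno2, Pfkfb3 and Vegfa share no exon base with another gene of the GENCODE M21 annotation.

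**Figure D1:**
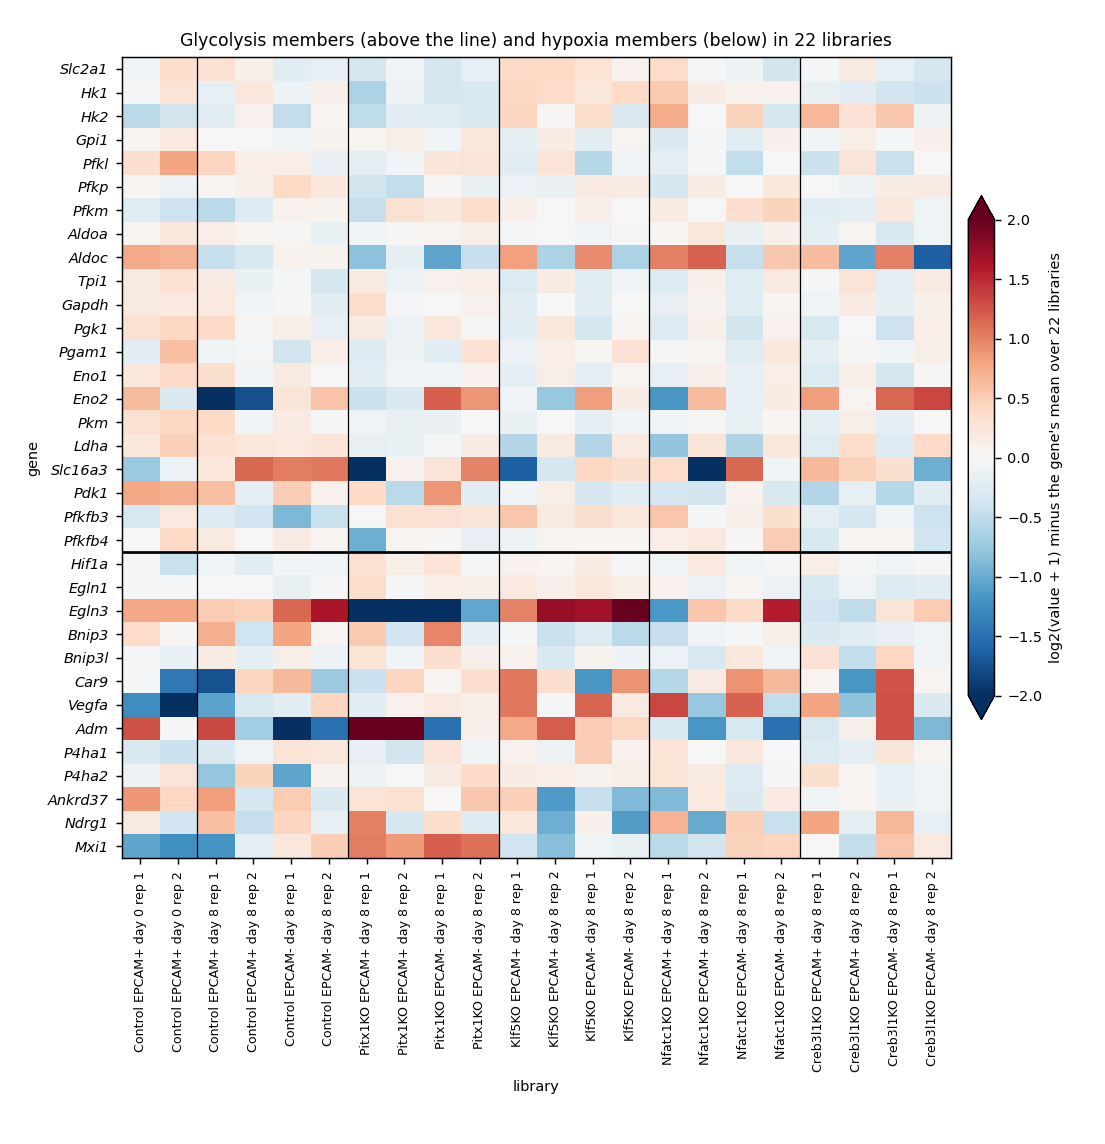
Each column is a library and each row a gene; colour is log2(value + 1) minus the gene's mean over the 22 libraries, cut at 2 in either direction. Egln3 is low across the 4 Pitx1KO libraries (3 to 52), Mxi1 is high there (563 to 714), Vegfa is high in 6 replicate 1 libraries of Klf5KO, Nfatc1KO and Creb3l1KO, and abundant enzymes such as Gpi1, Aldoa and Pkm stay pale.

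The HIF core was common in the promoters of these genes. RefSeq promoters (GRCm38.p6, 250 bases before to 50 after each annotated start) were matched for 32 of the 34 members, all but Ndrg1 and Bnip3l, with 48 starts in all. The letters ACGTG or GCGTG, read on both strands, occurred in 38 of the 48 windows (79.2%), against 43.8% of 32851 windows of all genes. For glycolysis it was 26 of 34 windows (76.5%) and for hypoxia 12 of 14 (85.7%). In the 100 bases around the start the shares were 41.7% for the members and 21.1% for all. ACGTG is also part of CACGTG, the E-box that other factors bind, and a match is a description of letters, not a bound site. Both cores hold the letters CG, and the windows of all genes were not matched to the members for base content or expression. Several starts of 1 gene also count as separate windows, so the higher share was not tested as a trait of HIF targets. The 250 bases upstream of the start are shown for the 4 members called in the comparison of the sorted fractions (Egln3, Mxi1, P4ha1, Eno2) and the 3 glycolysis members called between the replicates (Pgam1, Ldha, Gpi1), 5′ to 3′ on the strand of the gene, with each core in capitals. They lie at chr12:54203875-54204124 (Egln3, minus strand), chr19:53310256-53310505 (Mxi1, plus), chr10:59323046-59323295 (P4ha1, plus), chr6:124769674-124769923 (Eno2, minus), chr19:41911621-41911870 (Pgam1, plus), chr7:46845554-46845803 (Ldha, plus) and chr7:34230337-34230586 (Gpi1, minus).
Egln3: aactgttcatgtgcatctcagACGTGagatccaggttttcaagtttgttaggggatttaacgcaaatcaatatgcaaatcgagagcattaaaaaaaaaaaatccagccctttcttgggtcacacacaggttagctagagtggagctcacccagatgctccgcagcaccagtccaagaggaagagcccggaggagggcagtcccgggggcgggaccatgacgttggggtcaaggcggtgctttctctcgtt
Mxi1: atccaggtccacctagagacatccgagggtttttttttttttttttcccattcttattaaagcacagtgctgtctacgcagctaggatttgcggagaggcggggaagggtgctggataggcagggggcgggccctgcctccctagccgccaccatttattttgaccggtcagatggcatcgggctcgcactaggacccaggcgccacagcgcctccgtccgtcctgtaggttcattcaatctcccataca
P4ha1: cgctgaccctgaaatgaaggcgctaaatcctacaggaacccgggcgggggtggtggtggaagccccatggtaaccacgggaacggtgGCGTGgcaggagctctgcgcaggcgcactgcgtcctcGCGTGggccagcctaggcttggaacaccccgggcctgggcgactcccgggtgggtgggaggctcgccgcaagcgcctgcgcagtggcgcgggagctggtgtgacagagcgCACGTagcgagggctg
Eno2: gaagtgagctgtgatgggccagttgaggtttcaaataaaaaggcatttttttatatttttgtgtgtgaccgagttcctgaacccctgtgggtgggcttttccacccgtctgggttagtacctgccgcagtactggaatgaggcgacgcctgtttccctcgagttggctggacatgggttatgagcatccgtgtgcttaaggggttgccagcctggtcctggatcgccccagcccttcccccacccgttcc
Pgam1: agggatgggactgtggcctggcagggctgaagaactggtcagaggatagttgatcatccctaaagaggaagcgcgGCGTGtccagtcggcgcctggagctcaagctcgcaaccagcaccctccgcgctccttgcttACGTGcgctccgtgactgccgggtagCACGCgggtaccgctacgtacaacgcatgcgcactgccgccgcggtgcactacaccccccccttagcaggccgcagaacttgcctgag
Ldha: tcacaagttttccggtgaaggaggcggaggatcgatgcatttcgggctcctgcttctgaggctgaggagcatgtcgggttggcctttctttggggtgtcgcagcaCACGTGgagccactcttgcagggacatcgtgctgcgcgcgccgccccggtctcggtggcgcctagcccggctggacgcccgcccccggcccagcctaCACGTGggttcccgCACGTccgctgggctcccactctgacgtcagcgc
Gpi1: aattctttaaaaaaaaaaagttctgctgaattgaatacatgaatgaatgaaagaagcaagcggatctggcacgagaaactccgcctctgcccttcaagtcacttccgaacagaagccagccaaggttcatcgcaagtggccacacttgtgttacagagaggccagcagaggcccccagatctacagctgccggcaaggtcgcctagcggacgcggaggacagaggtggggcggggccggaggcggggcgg
Ldha had 5 overlapping or separate matches, the first base of each lying 145, 144, 48, 47 and 34 bases before the start. P4ha1 and Pgam1 had 3 each, Egln3 had 1 that began 229 bases before the start, and the stretches of Mxi1, Eno2 and Gpi1 had 0. Each stretch belongs to the RefSeq start nearest the 5′ end of the gene in GENCODE M21. Over all starts and the full 300-base windows, 11 of 11 matched hypoxia members, Mxi1 included, and 18 of 21 glycolysis members had a core.

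In EPCAM- against EPCAM+ cells, 3 of the 13 hypoxia members rose and 1 of the 21 glycolysis members did. The fit was limma on log2(value + 1), with the difference averaged over the 5 lines at day 8 and Benjamini-Hochberg adjusted p below 0.05 as the call. Of all 19569 genes tested, 6.22% were called (2.74% higher and 3.49% lower in EPCAM- cells), and of the 34 members 11.8%. The median difference (log2) was 0.16 for the hypoxia members and -0.04 for the glycolysis members, against 0.06 over all genes tested. In bulk RNA, fewer cells of a type and less RNA per cell cannot be told apart.

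Egln3 (chr12:54178981-54203860 in GRCm38) encodes the HIF prolyl hydroxylase that hypoxia itself induces. In EPCAM+ cells its 10 values ran from 3 through a median of 115.5 to 364, and in EPCAM- cells from 13 through 196.5 to 442. The ranges overlapped, over the lines and also within Klf5KO and Nfatc1KO, but within a line and replicate the EPCAM- library was the higher in 10 of 10 pairs. With replicate 1 before replicate 2, Control stood at 154 and 149 in EPCAM+ and 240 and 335 in EPCAM- cells, Klf5KO at 214 and 364 against 347 and 442, and Nfatc1KO at 48 and 156 against 141 and 320. Creb3l1KO stood at 82 and 75 against 129 and 153, and Pitx1KO at 3 and 5 against 13 and 52. The difference was 1.20 ± 0.26 (log2, SE; limma, adjusted p = 0.00893), with 1.06 within replicate 1 and 1.33 within replicate 2.

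Mxi1 (chr19:53310518-53375810) encodes a MAX partner that opposes MYC and is induced by HIF. It too was higher in EPCAM- cells in 10 of 10 pairs, from 136 through 240 to 631 in EPCAM+ and from 279 through 423.5 to 714 in EPCAM- libraries. Control stood at 136 and 274 in EPCAM+ against 362 and 438 in EPCAM- cells, and Nfatc1KO at 213 and 242 against 428 and 419. The values were 311 and 223 against 455 and 355 in Creb3l1KO, 238 and 171 against 292 and 279 in Klf5KO, and 631 and 563 against 714 and 668 in Pitx1KO. The mean difference was 0.65 ± 0.13 (log2, SE; limma, adjusted p = 0.00389). Egln3 and Mxi1 kept their calls in every alternative run for this comparison.

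P4ha1 (chr10:59323296-59373304), a catalytic subunit of the enzyme that hydroxylates collagen prolines, was higher in 8 of 10 pairs. Its values were 793 through 927 to 1228 in EPCAM+ and 967 through 1195 to 1454 in EPCAM- libraries, overlapping ranges, with a difference of 0.29 ± 0.08 (log2, SE; limma, adjusted p = 0.0492). The call sat at the threshold and was lost in 18 of 22 fits that left out 1 library, with a largest adjusted p of 0.126 without Klf5KO EPCAM- replicate 1, and also with other size factors (0.113), with no filter on low values (0.0925) and when the other groups were left out of the fit (0.0557). Its sister gene P4ha2 went the other way in 8 of 10 pairs and was not called (378.2 in EPCAM+, 343.3 in EPCAM- cells).

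The glycolysis member called was Eno2, the neuronal enolase, at a mean of 10.2 in EPCAM+ and 21.2 in EPCAM- cells. It was higher in 9 of 10 pairs, by 1.30 ± 0.32 (log2, SE; limma, adjusted p = 0.0205), but rested on 0 to 13 reads per library. It fell out of the filter of at least 50 in at least 4 libraries and was not called without Klf5KO EPCAM- replicate 1 (0.0543), Klf5KO EPCAM+ replicate 2 (0.0511) or Creb3l1KO EPCAM+ replicate 2 (0.0564). Eno1, the most abundant enolase gene among the members, was higher in 5 pairs and lower in 5.

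At the head of the pathway, Slc2a1, the main glucose transporter, was lower in EPCAM- cells in 10 of 10 pairs, with values of 1413 through 1950.5 to 2340 in EPCAM+ and 1376 through 1584.5 to 2134 in EPCAM- libraries. The difference of -0.28 ± 0.08 (log2, SE) missed the threshold (limma, adjusted p = 0.0580) and passed it with the replicate number as a block (0.0320), a fit that called 10.1% of all genes. The phosphofructokinase subunits Pfkp and Pfkm were higher in 10 of 10 pairs each, while the liver subunit Pfkl was lower in 7 of 10. Pfkp stood at 807.8 in EPCAM+ and 964.2 in EPCAM- cells (0.26 ± 0.08, log2, SE; adjusted p = 0.0525, 0.0276 with the block). Pfkm stood at 420.1 and 506.9 (0.28 ± 0.10; adjusted p = 0.102). The abundant enzymes from Aldoa to Ldha showed differences between -0.09 (Gapdh) and 0.08 (Pgam1) on the log2 scale, none of them called. Adm, the vasodilator adrenomedullin, was at 22 in EPCAM+ and 8.8 in EPCAM- cells, lower in 8 of 10 pairs and not called (adjusted p = 0.0841), on few reads.

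**Figure D2:**
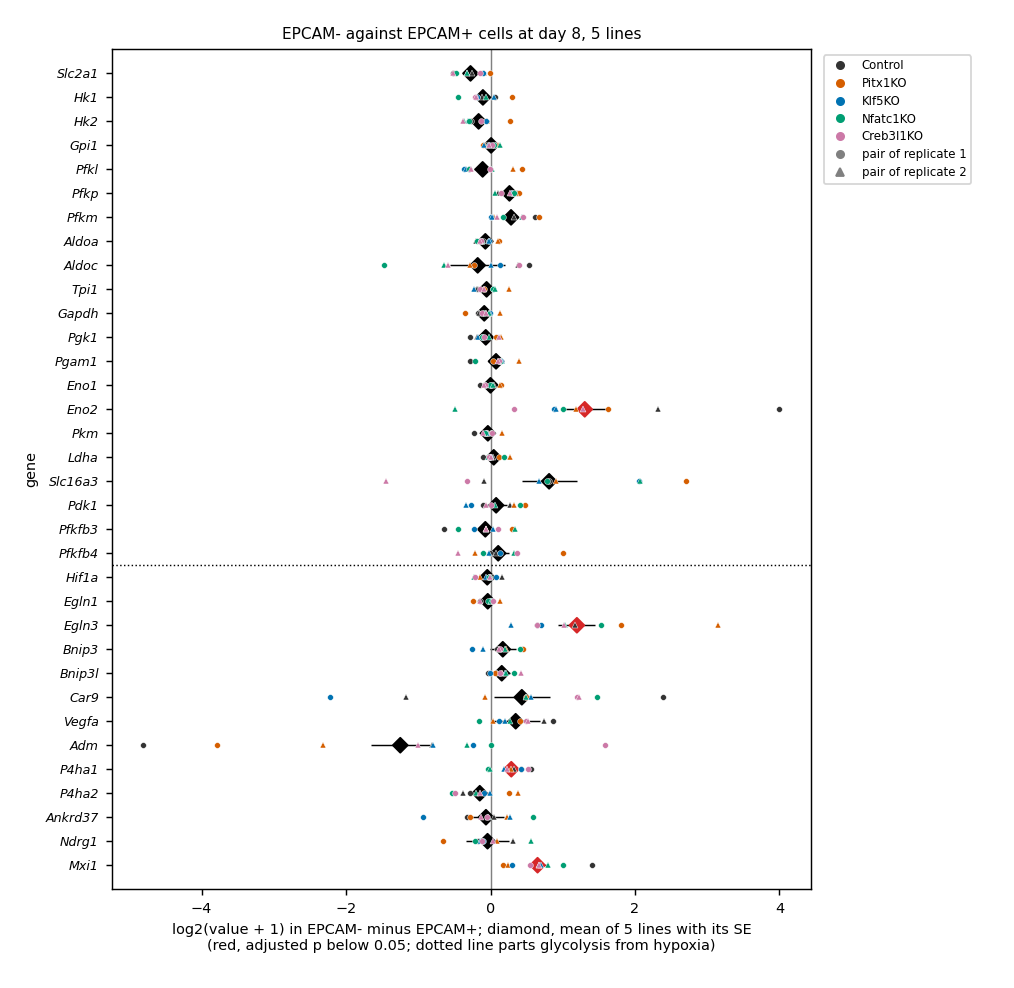
The x axis gives log2(value + 1) in EPCAM- minus EPCAM+ cells at day 8; diamonds are the mean over 5 lines with its SE, red where called, and small points the 10 pairs of a line and replicate. The points of Egln3 and Mxi1 all lie to the right of 0, those of Slc2a1 all to the left, and Adm, Slc16a3, Car9 and Eno2, which rest on few reads, scatter most.

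The pairs of a line also gave a fit with each line and replicate as a block. It called 12 members (9 higher and 3 lower) beside 22.7% of all genes tested (13.6% higher and 9.14% lower). The 9 higher were the 4 above with Pfkp, Pfkm, Slc16a3, Bnip3l and Vegfa, and the 3 lower were Slc2a1, Hk2 and Adm. Vegfa shows what the pairing changes: it was higher in EPCAM- cells in 9 of 10 pairs (0.35 ± 0.34, log2, SE without the block), but its lines and replicates differed more than its fractions, with adjusted p = 0.643 in the main fit and 2.9e-05 with line and replicate as a block.

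Among other genes of these pathways, the pentose phosphate branch was the group with most calls in this comparison, 3 of 7 genes, all lower in EPCAM- cells in 10 of 10 pairs each. Rpia, which makes ribose 5-phosphate, stood at 730.4 in EPCAM+ and 294.4 in EPCAM- cells (-1.27 ± 0.14, log2, SE), the transketolase Tkt at 5203.4 and 3884.2 (-0.42 ± 0.07) and Pgd at 2248.4 and 1802.7 (-0.32 ± 0.08), with limma adjusted p-values of 1.01e-05, 0.00120 and 0.0274; Pgd was not called without Klf5KO EPCAM+ replicate 2 (0.0736). Of 8 other glycolysis isoforms and transporters tested, 1 was higher (Ldhb, 45.9 and 95.7) and 1 lower (Pfkfb2, a maker of the phosphofructokinase activator, 556.4 and 385.6). Of 9 HIF pathway regulators tested, Arnt, the partner of Hif1a, was higher (1189.9 and 1487.8; 0.33 ± 0.09; adjusted p = 0.0310, and 0.0805 without Creb3l1KO EPCAM+ replicate 2), and Hif1a itself was not called (5092.7 and 4927.6). Of 25 further hypoxia-induced genes tested, Lox, a collagen cross-linking enzyme, was higher (292.0 and 944.1) and Pfkfb2, also on that list, lower. None of 10 genes of pyruvate dehydrogenase and its control was called. The medians (log2) of these 5 lists, in the same order, were -0.15, 0.03, 0.11, 0.01 and 0.09.

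Within single lines, the main limma fit called 0 of the 34 members in any of the 5 comparisons of EPCAM- with EPCAM+ cells, as did voom on the recovered reads. The share of all genes called was 0.644% in Control, 0.317% in Pitx1KO, 0.286% in Klf5KO, 0.429% in Nfatc1KO and 0.291% in Creb3l1KO, each from 2 libraries against 2. At unadjusted p below 0.05 there were 5 members in Control, 3 each in Pitx1KO and Nfatc1KO, 1 in Creb3l1KO and 0 in Klf5KO. The share of all genes at that cut was 7.17% in Control, 6.10% in Pitx1KO, 9.20% in Nfatc1KO, 4.56% in Creb3l1KO and 3.83% in Klf5KO. A fit with line and replicate as a block called members in each line except Klf5KO, among them Eno2, P4ha1, Vegfa and Mxi1 in Control. The share of all genes which that fit called in single lines is not given here. Egln3 differed most in Pitx1KO (2.48 ± 0.57, log2, SE; adjusted p = 0.0980, 0.00788 with the replicate block, which called 0.705% of all genes there), from 1 and 2 reads in EPCAM+ to 5 and 20 in EPCAM- cells. In Control, Eno2 rose from 0 and 3 to 15 and 19 (adjusted p = 0.0610, 0.0442 with the block, beside 1.14% of all genes), and without Control EPCAM+ replicate 2 limma called both Eno2 and Mxi1 there, and without either Nfatc1KO EPCAM+ library it called Eno2. Egln3 was called in Pitx1KO without its EPCAM- replicate 1 (0.0354). The test of whether a knockout changed the fraction difference called 0 members and 0 of all genes in each of the 4 knockout lines, with adjusted p = 1 for every member, and 0, 1, 1 and 2 members at unadjusted p below 0.05 in Pitx1KO, Klf5KO, Nfatc1KO and Creb3l1KO. All 4 of these results were of sparse genes: Eno2 in Klf5KO, Nfatc1KO and Creb3l1KO, and Adm in Creb3l1KO. Of all genes, 1.87% passed that unadjusted cut in Pitx1KO, 1.37% in Klf5KO, 1.91% in Nfatc1KO and 1.13% in Creb3l1KO.

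In Pitx1KO, Egln3 fell to 1, 2, 5 and 20 reads in the 4 libraries, the largest difference of any member in the 17 comparisons. Compared with Control at day 8 over both fractions, 3 of 34 members were called in Pitx1KO, Egln3 lower and Mxi1 and Pfkfb3 higher, against 4.28% of all genes tested (2.22% higher and 2.06% lower). All 4 knockouts are compared with the same 4 Control libraries, so their differences are not independent. Egln3 was at 3 and 5 in EPCAM+ and 13 and 52 in EPCAM- Pitx1KO libraries, against 149 to 335 in Control, with no overlap. The mean fell from 219.5 to 18.25, 12.0-fold lower, and the fitted difference was -4.17 ± 0.41 (log2, SE; limma, adjusted p = 2.4e-05), with -4.69 within replicate 1 and -3.65 within replicate 2. It rested on 28 reads in the 4 Pitx1KO libraries against 344 in Control, a ratio of reads per total of 12.4 (95% interval 8.45 to 19.0, exact, counting error only). In the other knockouts, Egln3 was at 214 to 442 (Klf5KO), 48 to 320 (Nfatc1KO) and 75 to 153 (Creb3l1KO), all overlapping Control over both fractions and none called. Within each fraction Creb3l1KO lay below Control (82 and 75 against 154 and 149 in EPCAM+, 129 and 153 against 240 and 335 in EPCAM- cells). The ratio of reads per total, Control over knockout, was 2.08 (95% interval 1.73 to 2.5) in Creb3l1KO. It was 1.38 (1.17 to 1.64) in Nfatc1KO and 0.64 (0.56 to 0.73) in Klf5KO, with counting error only. At day 0 the Control values of Egln3 were 185 and 184.

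Mxi1 ran the other way in Pitx1KO, at 631 and 563 in EPCAM+ and 714 and 668 in EPCAM- cells against 136 to 438 in Control, again without overlap. The mean rose from 302.5 to 644, 2.13-fold, by 1.21 ± 0.20 (log2, SE; limma, adjusted p = 0.00201). Within replicate 1 the difference was 1.59 and within replicate 2 it was 0.82. So Egln3 and Mxi1, which were both higher in EPCAM- cells, moved in opposite directions in Pitx1KO. Of the other oxygen sensing genes, Hif1a stood at 4814 to 6012 against 4215 to 4731 in Control (0.27 ± 0.11, log2, SE; adjusted p = 0.226) and Egln1, the main hydroxylase for HIF in normal oxygen, at 1592 to 2095 against 1462 to 1624 (0.19 ± 0.11; adjusted p = 0.414). The hypoxia members as a set had a median difference of 0.19 (log2) against 0.02 over all genes tested, and 10 of 13 were positive. Some markers moved too in this line: Krt14 was at a mean of 151.5 against 5922.25 in Control, and Pdgfra at 256 against 67.5. The Control values of Krt14 were 12774 and 6797 in replicate 1 and 2006 and 2112 in replicate 2. Krt8 (9446 to 15640 against 7622 to 19245) and Krt18 (6159 to 13520 against 5389 to 15536) overlapped Control. Of the fibroblast markers, Col1a1 stood at 392 to 3666 against 81 to 667, and Dcn at 0 in every Pitx1KO library against 0 to 61. The part of these markers in the differences was not tested.

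Pfkfb3 (chr2:11471433-11554077), which makes the activator fructose 2,6-bisphosphate and so speeds phosphofructokinase, was the glycolysis member called. Its Pitx1KO values were 438 and 537 in EPCAM+ and 541 and 515 in EPCAM- cells, above all 4 Control values of 366, 333, 234 and 319. The difference was 0.71 ± 0.17 (log2, SE; limma, adjusted p = 0.0272). In Klf5KO the values were 639, 496, 547 and 509 (0.82 ± 0.17; adjusted p = 0.0433), and in Nfatc1KO 639, 430, 466 and 545 (0.73 ± 0.17; adjusted p = 0.153, 0.0462 with the replicate block, beside 0.95% of all genes). In Creb3l1KO they were 385, 343, 414 and 328, which overlapped Control. These differences share Control EPCAM- replicate 1, the lowest library at 234; without it the adjusted p-values were 0.122 in Pitx1KO and 0.260 in Klf5KO. The 2 day 0 Control libraries stood at 348 and 501, above the day 8 mean of 313. In Pitx1KO the call was also lost when the other groups were left out of the fit (0.0639) and in 6 of 22 fits that left out 1 library.

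No other glycolysis member was called in Pitx1KO. The median over the 21 members was -0.12 (log2), with 13 negative. Pfkp stood at 679, 619, 890 and 790 against 893 to 1157 in Control, without overlap (-0.43 ± 0.12, log2, SE; limma, adjusted p = 0.0547), and passed the threshold with the replicate block (0.0245), beside 8.77% of all genes. Ldha stood at 12473 to 15274 against 15893 to 17136, also without overlap, and was not called. In the pyruvate dehydrogenase list, 2 of 10 genes were called lower, with limma adjusted p-values of 0.00617 and 0.00769. Pdha1, the catalytic subunit, fell from 2970.75 to 1962.5 (-0.59 ± 0.11, log2, SE) and Dlat, the acetyltransferase subunit, from 1052.75 to 661.25 (-0.68 ± 0.13). Pdhx of the same list lay the other way, at 676 to 1021 against 553 to 640 in Control, without overlap. Pgm1, a phosphoglucomutase by its symbol alone, rose from 603.5 to 941.75 (0.64 ± 0.14, log2, SE, with a limma adjusted p = 0.0155). It was the only call among 25 further hypoxia-induced genes, and the call was lost without Control EPCAM- replicate 1.

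In Klf5KO the only member called was Pfkfb3, against 0.557% of all genes tested. Its call did not hold when the other groups were left out of the fit (limma, adjusted p = 0.151), with no filter (0.0517), with other size factors (0.0507) or with voom (0.0575), and 17 of 22 fits without 1 library lost it. Ldha stood at 9246, 15593, 9233 and 15602, with EPCAM+ before EPCAM- and replicate 1 before replicate 2 in each, all below the 15893 to 17136 of Control; the shortfall lay in replicate 1 (-0.84 on the log2 scale, against -0.06 within replicate 2). Hif1a (4834 to 5438) and Egln1 (1748 to 1867) lay above the 4 day 8 Control values without being called; Hif1a at day 0 stood at 4981 and 3613. The median difference was -0.05 (log2) for glycolysis and 0.16 for hypoxia, against -0.03 over all genes. Pdha1 fell from 2970.75 to 1719.5 (-0.78 ± 0.11, log2, SE; limma, adjusted p = 0.00198).

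Nfatc1KO and Creb3l1KO had 0 members called with limma and with voom, against 0.046% and 0.945% of all genes tested. At unadjusted p below 0.05 there were 2 members in Nfatc1KO and 5 in Creb3l1KO. The share of all genes at that cut was 10.49% in Nfatc1KO and 11.64% in Creb3l1KO. In Nfatc1KO, Pfkfb3 lay above the 4 day 8 Control values, as described. In Creb3l1KO, Eno2 stood at 23, 13, 29 and 33 against 0, 3, 15 and 19 in Control (2.02 ± 0.51, log2, SE; adjusted p = 0.0772), on 6 to 13 reads, and it was called without Control EPCAM+ replicate 2 (0.0227). Pdk1, the kinase that turns pyruvate dehydrogenase off, stood at a mean of 690 in Creb3l1KO against 1088.25 in Control (-0.64 ± 0.24; adjusted p = 0.302), and Hk2 at 5195.5 against 3664.75 (0.49 ± 0.22; adjusted p = 0.396). Both differences lay in replicate 1: Pdk1 had -1.12 within replicate 1 and -0.15 within replicate 2, and Hk2 had 0.95 and 0.03 (log2). Pdha1 was lower here too, at 1831 against 2970.75 (-0.69 ± 0.11; adjusted p = 0.00401). In Nfatc1KO Pdha1 stood at 1855 to 2350 against 2485 to 3499, without overlap, and was called with the replicate block alone (adjusted p = 0.134 without it and 0.0173 with it). The median differences (log2) were -0.03 for glycolysis and 0.10 for hypoxia in Nfatc1KO, and -0.14 and 0.10 in Creb3l1KO, against 0.00 and -0.01 over all genes.

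**Figure D3:**
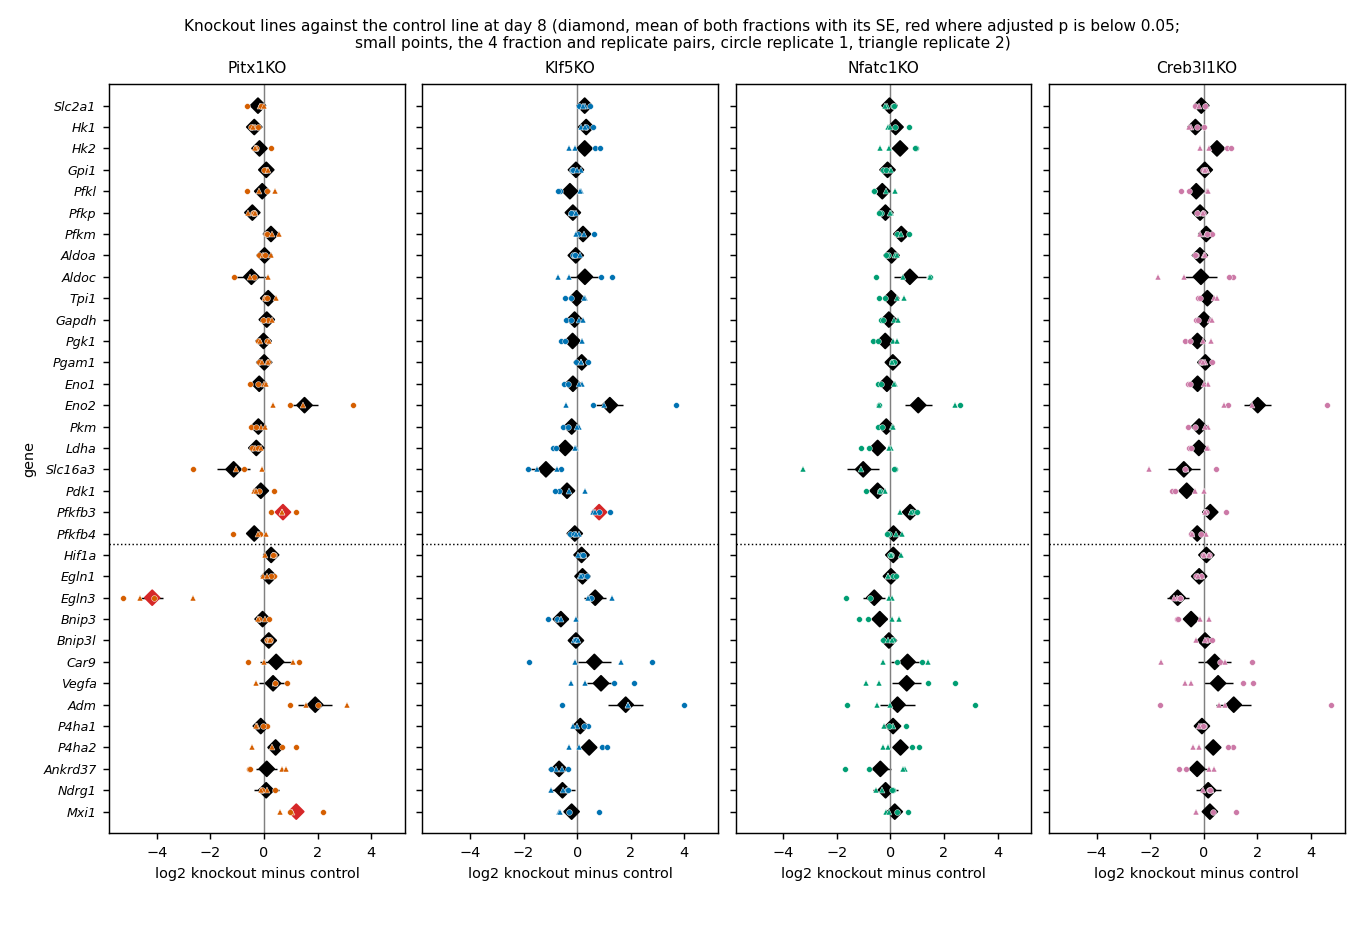
Each panel is a knockout line; the x axis gives log2(value + 1) in the knockout minus Control at day 8, diamonds the mean of both fractions with its SE, red where called, and small points the 4 pairs of fraction and replicate. Egln3 at -4.17 in Pitx1KO stands alone to the left. Pfkfb3 lies to the right of 0 in all 4 panels, least far in Creb3l1KO. The sparse members Eno2, Adm, Car9 and Slc16a3 have the widest points.

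Over time, EPCAM+ Control cells of day 8 and day 0 showed no called difference in these genes, at 2 libraries each. Limma called 0 members and 0% of all genes tested, and voom called 0 members. At unadjusted p below 0.05 there was 1 member, beside 4.25% of all genes. It was Eno2, at 20 and 10 on day 0 and 0 and 3 on day 8. Vegfa stood at 1486 and 699 on day 0 and 1666 and 2805 on day 8 (adjusted p = 1), and Pdk1 at 1531 and 1459 against 1355 and 791. Of the glycolysis members, none of them called, 17 of 21 had a negative difference, with a median of -0.13 (log2) against 0.00 over all genes. Day 8 EPCAM- against day 0 EPCAM+ Control cells gave 1 call, Mxi1, against 2.01% of all genes tested. It stood at 149 and 132 on day 0 and at 362 and 438 in EPCAM- cells on day 8, 2.85-fold higher by the means (1.5 ± 0.28, log2, SE; limma, adjusted p = 0.00944). This comparison changes the day and the fraction together, and it was not called when the other groups were left out of the fit (0.0665), without day 0 replicate 2 (0.0927) or without EPCAM- replicate 2 (0.0975). With the replicate block P4ha1 was called as well (0.0307), beside 4.31% of all genes, at 836 and 757 against 1229 and 1197. Rpia (883.5 to 288.5) and Tkt (6729 to 3556) of the pentose phosphate list fell and the HIF partner Arnt2 rose (3.0 to 32.5), and none of these 3 was called without day 0 replicate 2 (adjusted p = 0.121, 0.0955 and 0.452).

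Replicate 2 differed from replicate 1 in 6 of 34 members, in a comparison that called 20.2% of all genes tested (11% higher and 9.25% lower in replicate 2). The members' share, 17.6%, was no higher than that of all genes, so the count says nothing particular about them. The comparison fits a common difference over the 11 groups, and the labels call the number a batch without saying what was shared within it. Of the 13 hypoxia members 2 were called lower and 1 higher, and of the 21 glycolysis members 3 higher and 0 lower. Called or not, 11 hypoxia members had a negative difference (median -0.16, log2) and 15 glycolysis members a positive one (median 0.09), against a median of 0.02 over all genes. The hypoxia members made up 0.0696% to 0.111% of a library in replicate 1 (median 0.101%) and 0.0540% to 0.0851% in replicate 2 (median 0.0731%). This sum weighs abundant members such as Vegfa, Hif1a and Ndrg1 most, so it does not measure a shift common to the members. Vegfa, whose split between replicates lay in 3 knockout lines, is described below. The glycolysis members made up 0.475% to 0.652% (median 0.50%) and 0.515% to 0.687% (median 0.577%).

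Ndrg1 (chr15:66929318-66969640), a stress gene strongly induced by hypoxia, carried the clearest replicate difference of the set. Its 11 values in replicate 1 were 2179 to 4085 (median 2814) and in replicate 2 they were 935 to 1839 (median 1554), without overlap and lower in 11 of 11 groups. The means were 2919.9 and 1473.7, a difference of -1.0 ± 0.09 (log2, SE; limma, adjusted p = 4.76e-06), and the call held without any 1 library. Bnip3l, the mitophagy receptor also called Nix, was lower in 11 of 11 groups as well, at 1448 to 2100 against 1122 to 1697 (-0.32 ± 0.06; adjusted p = 0.00217). Its relative Bnip3 was lower in 7 of 11 (257 to 695 against 242 to 383; adjusted p = 0.0602, and 0.0414 with other size factors). Egln3 went up, in 8 of 11 groups, from a mean of 141.5 to 203.2 (0.64 ± 0.18; adjusted p = 0.0213), and was not called without Nfatc1KO EPCAM- replicate 1 or 2 or without Nfatc1KO EPCAM+ replicate 2.

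In glycolysis, Pgam1 and Gpi1 were higher in replicate 2 in 11 of 11 groups and Ldha in 10 of 11. Pgam1, the phosphoglycerate mutase, had values of 1767 to 2325 in replicate 1 and 2119 to 3476 in replicate 2 (0.32 ± 0.07, log2, SE; limma, adjusted p = 0.00390). Gpi1, the isomerase of the second step, had 4379 to 5524 and 5243 to 6235 (0.20 ± 0.05; adjusted p = 0.00873). Ldha had 8021 to 17136 and 12666 to 19211 (0.46 ± 0.10; adjusted p = 0.00456), with values that varied between the lines; whether the lines differ in it was not tested. At day 8 the means of replicate 1 and replicate 2 were 16514.5 and 16255.5 in Control and 12999 and 13970 in Pitx1KO, but 9239.5 and 15597.5 in Klf5KO, 8575.5 and 16120.5 in Nfatc1KO and 11589.5 and 17980.5 in Creb3l1KO.

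Vegfa split along the same lines in the opposite direction. The 6 libraries of replicate 1 of Klf5KO, Nfatc1KO and Creb3l1KO stood at 6035 to 8835, and the other 16 libraries at 699 to 4708. By the means, replicate 1 exceeded replicate 2 2.04-fold in Klf5KO, 3.68-fold in Nfatc1KO and 2.97-fold in Creb3l1KO, whereas in Control replicate 2 was the higher at day 8 (2805 against 1666 and 4708 against 3030) and in Pitx1KO the 2 differed by 1.08-fold. Over 11 groups the common difference was not called (limma, adjusted p = 0.0907), but it was without Control EPCAM+ day 8 replicate 1 or 2 (0.0388 and 0.0386) or Control EPCAM- replicate 2 (0.0495), and whether the lines differ in it was not tested. The comparison of these knockouts with Control therefore depends on the replicate: the Vegfa difference (log2) was 1.75, 1.90 and 1.67 within replicate 1 for Klf5KO, Nfatc1KO and Creb3l1KO, and 0.03, -0.68 and -0.60 within replicate 2.

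**Figure D4:**
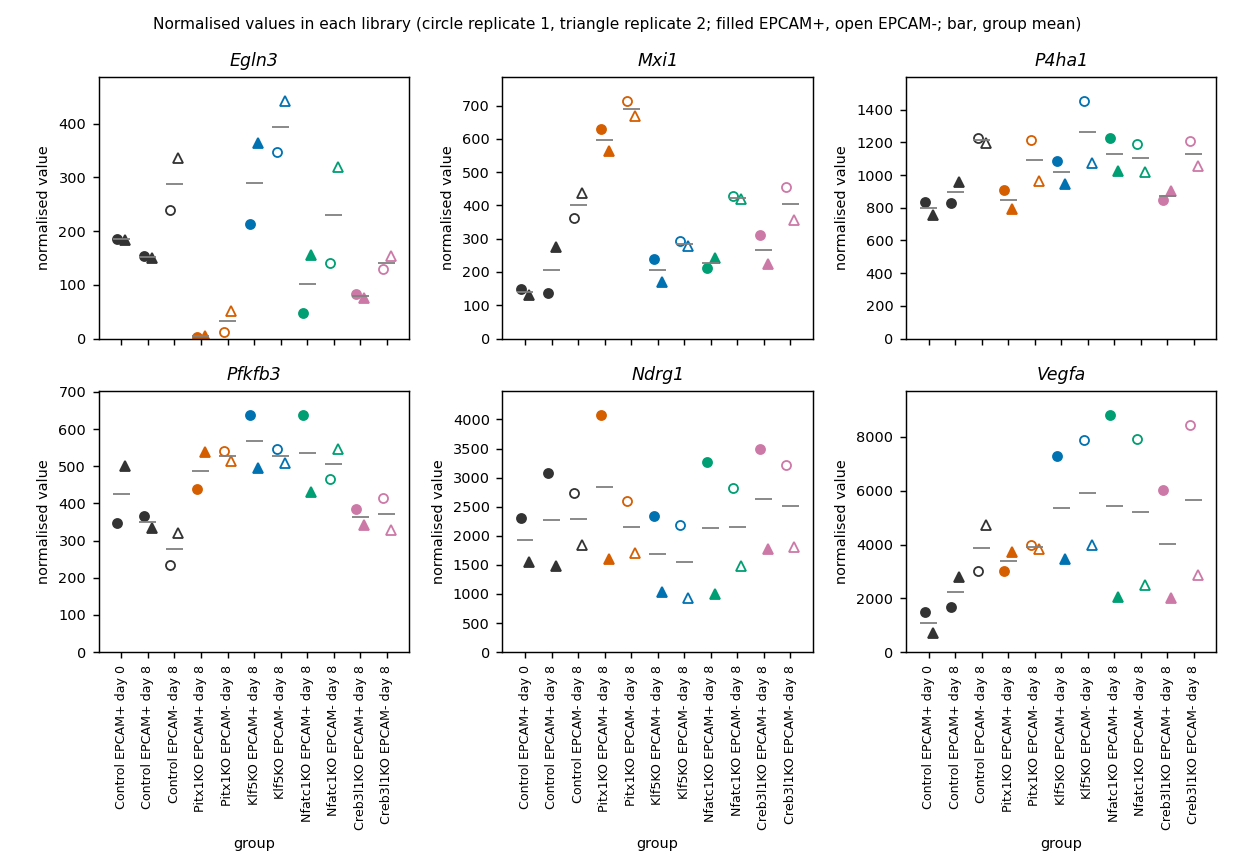
The normalised value of each library by group, for 6 members; circles are replicate 1, triangles replicate 2, filled EPCAM+ and open EPCAM-, and the bar is the group mean. In Ndrg1 the circle lies above the triangle in all 11 groups, in Vegfa 6 circles of 3 knockout lines stand at 6035 or above, and in Egln3 the Pitx1KO points lie at 52 or below.

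Genes around these members also differed between the replicates. Of 9 HIF pathway regulators tested, 4 were lower in replicate 2 and 0 higher: Epas1, the other HIF alpha subunit (69.5 and 26.3), Vhl (804.3 and 614.8; lower in 11 of 11 groups), the HIF inhibitor Hif1an (1455.6 and 1084.5) and Cul2 (1697.6 and 1446.6; not called without Pitx1KO EPCAM- replicate 1, at an adjusted p of 0.0582). Of 25 further hypoxia-induced genes, 5 were lower and 4 higher. Among them Ddit4, which restrains mTOR under stress, stood at 1661.9 and 535.4 (-1.41 ± 0.25, log2, SE) and Angptl4 at 1436.9 and 556.5 (-1.30 ± 0.19). Of 8 other glycolysis isoforms and transporters 3 were higher and 1 lower, led by the lactate transporter Slc16a1 (3442.6 and 4432.5). The epithelial marker Krt14 (4399 and 1738.1), Col1a1 (1256.9 and 501.5) and the endothelial receptor Kdr (73.6 and 2.9) were lower in replicate 2 as well. Other markers of the same lists did not all follow: Epcam was higher in replicate 2 in 10 of 11 groups and Cdh1 lower in 8 of 11. Pdgfra rose in both Control fractions at day 8 (19 to 84 and 43 to 124) and fell in both Nfatc1KO fractions (91 to 73 and 98 to 72). The part of these markers in the differences was not tested.

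**Figure D5:**
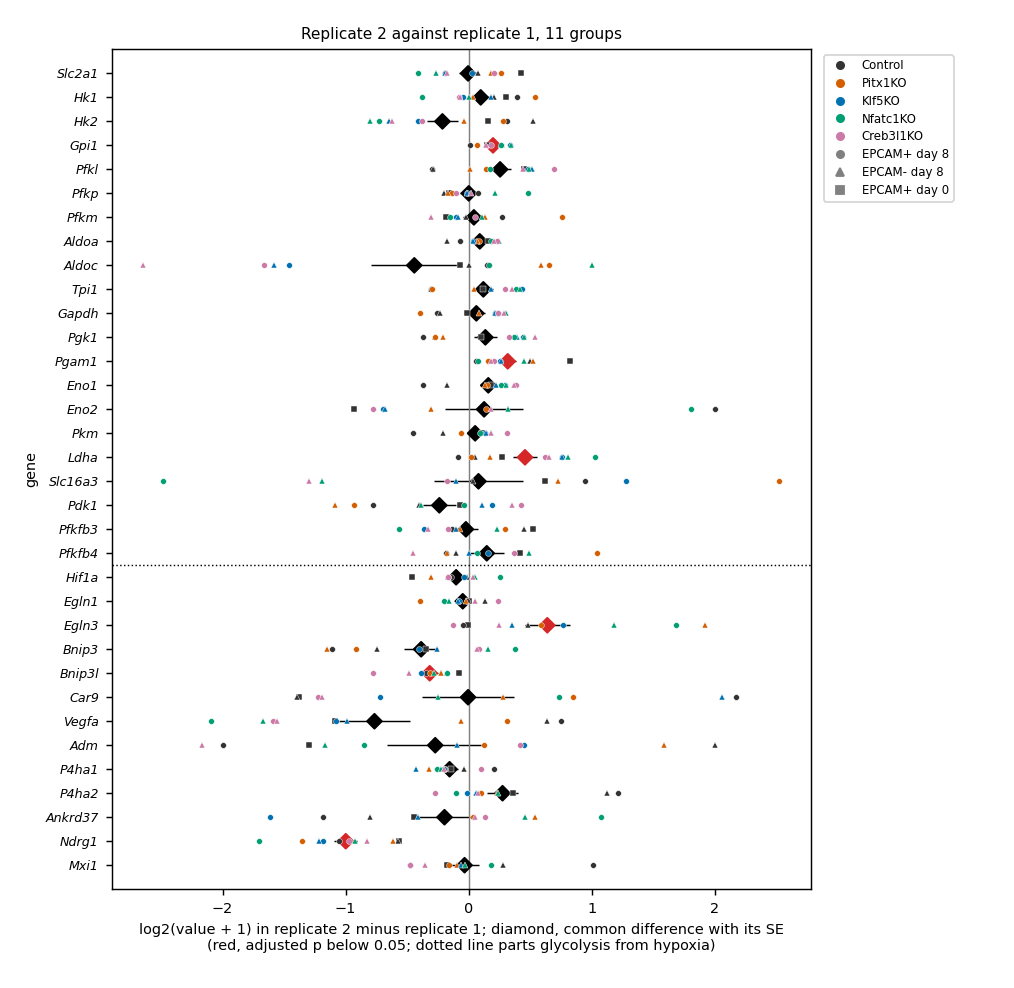
The x axis gives log2(value + 1) in replicate 2 minus replicate 1; diamonds are the difference common to 11 groups with its SE, red where called, and small points the groups. The 11 points of Ndrg1 and of Bnip3l lie left of 0, those of Pgam1 and Gpi1 right of 0, and the points of Vegfa spread from strongly negative in Nfatc1KO to positive in Control at day 8.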

How the data were processed

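Bulk RNA was measured in 22 libraries of sorted cells (RNeasy micro, Ovation Solo RNA-seq, NovaSeq paired end, per the labels' protocols). The submitters' processing notes name FastQC, Trimmomatic, STAR, Picard, HTSeq and GRCm38/mm10; versions, annotation and the use of strand are not given in the sources used here. The deposited table holds a score per gene, normalised read counts that the authors scaled to a common total and that are whole numbers, so it was not treated as raw counts. The step between low values gave the reads behind each library, with 99.8% to 99.9% of values on a step, and these recovered reads were used only for an alternative with voom and for reads behind sparse genes. One further allele of the labels' genotype is not reported here.

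The 19569 genes that reached 10 in 2 or more libraries were fitted with limma 3.58.1 (R 4.3.3) on log2(value + 1), with 11 group means over all 22 libraries, a trended and robust prior, and Benjamini-Hochberg adjustment over all tested genes within each of 17 comparisons. A call is an adjusted p below 0.05, the SE is limma's moderated one, and all tests are two-sided. A fold change on this scale understates the change of low genes. The 11 residual degrees of freedom come from pairs of libraries. The replicate number is the labels' batch tag, which pairs the libraries: deviations from group means correlated above 0.1 in 36 of 55 pairs of groups (median 0.146, range -0.131 to 0.381; fractions of a line 0.171 to 0.381). Gene positions and overlaps are from GENCODE M21, which held 99.3% of the gene IDs, and promoters from RefSeq. The script was tested on simulated data.

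All 34 members are reported; values per library are given for members called in a comparison and for up to 5 with the largest differences between fractions and replicates, and from each pathway list up to 4 called genes per comparison, with further members and genes named after their values were seen. The members and lists were chosen with earlier results of these data known. Alternatives were the replicate number as a block, line and replicate as a block, only the compared groups, a pseudocount of 10, no filter, a filter of 50 in 4 libraries, median-of-ratios size factors, voom, and leaving out each library.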

Additional observations from a re-analysis of the deposited data

How the results depend on the processing

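Of 426 alternative values for the 15 member results called, 368 kept direction and call, 58 kept direction and lost the call, and 0 reversed. The pairing through the replicate block changed counts of members called as follows: 1 in Control and 1 in Pitx1KO for EPCAM- against EPCAM+ (0 without it), 1 in Nfatc1KO against Control (0 without it) and 2 for day 8 EPCAM- against day 0 (1 without it); beside those and Slc2a1, Pfkp and Pdha1, given with their results, it changed no other call of a named member. With line and replicate as a block, the count for EPCAM- against EPCAM+ over 5 lines was 12, beside 22.7% of all genes tested. In single lines it was 4 in Control (Eno2, P4ha1, Vegfa and Mxi1) and 1 in Pitx1KO (Egln3). Nfatc1KO had 2 (Mxi1 and Egln3) and Creb3l1KO 1 (Vegfa). The share of all genes called in those single-line comparisons is not given here, so these counts cannot be read against it. In Klf5KO against Control the count was 0 in a fit of the compared groups alone, with no filter, with size factors and with voom, and for all genes the compared groups alone gave 8 calls in place of 109. For day 8 EPCAM- against day 0 the compared groups alone gave 0. In the 100 bases around the start, 41.7% of member promoters held a core.

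Leaving out 1 library at a time gave 2 to 5 members for EPCAM- against EPCAM+ over 5 lines, 0 to 2 in Control, 0 to 1 in Pitx1KO, 2 to 4 for Pitx1KO against Control, 0 to 1 for Klf5KO, 0 to 1 for Creb3l1KO, 0 to 1 for day 8 EPCAM- against day 0 and 6 to 10 between replicates, with 0 in the other comparisons. Size factors moved the median of all genes by no more than 0.1 (log2). Where a left-out library leaves a group with 1, that library is assumed to vary like the other groups. Members with a few reads per library (Eno2, Adm, Slc16a3, Aldoc, Car9) are limited by depth.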
